A study of Homo sapiens with 6 samples.

Results

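PARP1 occupancy before hormone and after 30 min of progestin was compared in T47D-MTVL cells. They derive from the luminal breast cancer line T47D and carry, in their genome, a reporter gene under the hormone-responsive promoter of the mouse mammary tumour virus. Both groups were this one cell line, kept first in charcoal-treated serum and then without serum. The 0 min cells received no hormone, and the 30 min cells received 10 nM R5020, a synthetic progestin, before formaldehyde fixation and chromatin immunoprecipitation with sequencing (ChIP-seq) against PARP1. The 2 PARP1 libraries are 2 of 6 in the series. The others are PARP1 at 5 min and CDK2 at 0, 5 and 30 min, with 1 library for each antibody and time. Of 303641 windows of 10 kb, 263610 were compared, namely the autosomal windows with a mean of at least 10 reads over the 6 libraries. Summed into 1 Mb blocks and kept where the 6 libraries averaged 5000 reads or more, they gave 2679 blocks.

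PARP1 is an abundant nuclear enzyme that attaches chains of ADP-ribose to itself, to histones and to other chromatin proteins. It is best known for sensing DNA breaks, and it is also found at active genes and in the nucleolus, where ribosomal RNA is made. In cells that carry the progesterone receptor, progestin sends a rapid kinase signal to chromatin, and the study asked how CDK2 takes part in the activation of PARP1 in this response.

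The PARP1 library held 55772389 reads at 0 min and 63448449 at 30 min, with 188 and 214 reads in the median compared window. The 5 min PARP1 library held 58495554 reads. Read numbers below are not scaled for these totals, while ratios are. A ratio below is the share of a library's reads at 30 min over the share at 0 min, so a gain or loss of PARP1 over the whole genome would not show. No spike-in was analysed here. The 6 libraries of the series include no input, so reads in a window do not by themselves show PARP1 enrichment there. With 1 library a side there is no replicate check and no p-value, and every ratio compares these 2 libraries. The intervals given are widened 95% intervals, which cover counting error and excess variation between windows of a library, not variation between cultures. For windows and genes, reads were divided by 4.77, the robust variance of single windows around the ratio of 20 windows on each side, before an exact binomial (Clopper-Pearson) interval was taken. For blocks, arms and chromosomes the dispersions between neighbouring windows of each library were used, 6.12 at 0 min and 8.67 at 30 min.

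The share of PARP1 reads at 30 min was close to that at 0 min over most of the genome. The median window had a ratio of 0.997, and from the 5th to the 95th percentile windows ran from 0.671 to 1.47. A ratio of at least 2 was found in 1026 windows (0.389%) and a ratio of at most 0.5 in 1302 (0.494%). They were more frequent where coverage was thin: 8.53% of the 4139 windows with a mean of 10 to 50 reads were past 2-fold higher, against 0.0425% of the 105858 windows with 200 to 400 reads. The widened interval lay above 1 in 6376 windows (2.42%) and below 1 in 6544 (2.48%). A 95% interval leaves 2.5% in each tail, but the divisor that widens it was estimated from the spread of these same windows. The closeness to 2.5% is therefore largely set by the method and does not show whether windows changed. When the 2 libraries were scaled on the 10% of windows with the fewest reads, which raised every log2 ratio by 0.04, the counts above and below 1 became 8474 and 4941. Below, this is called the low-window scaling. A ratio of at least 1.5 was found in 11097 windows (4.21%) and one of at most 1 over 1.5 in 12605 (4.78%). The single windows described below were deep, were named by rank, or belonged to a list.

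PARP1 was higher in most windows listed as holding copies of ribosomal RNA genes. The human ribosomal DNA arrays, which encode the 18S, 5.8S and 28S RNAs of the ribosome and form the nucleolus, are not part of the assembled chromosomes of hg19. Short copies of this sequence are scattered elsewhere, where reads from the arrays can align. A list of 10 autosomal windows with such copies was written from general knowledge of hg19 and was not checked against sequence. At 0 min they held 9469 PARP1 reads in all, at 5 min 12520 and at 30 min 22377. The summed ratio at 30 min was 2.08 (widened interval 1.97 to 2.19). The ratio was at least 1.5 in 7 of the 10, against 4.21% of all windows. The widened interval lay above 1 in 8 of the 10, against 2.42%. Reads from the same arrays can align to each of these windows, so the 10 may not be independent of each other.

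The window 9820001 to 9830000 on chromosome 21 held 3465 PARP1 reads before hormone, 5294 after 5 min and 10364 after 30 min, a ratio of 2.63 (2.42 to 2.86). On chromosome 1, the window 91850001 to 91860000 held 1051, 1430 and 2844 reads, a ratio of 2.38 (2.03 to 2.79). On chromosome 12, 20700001 to 20710000 held 448, 488 and 1126 reads, a ratio of 2.21 (1.73 to 2.84). These 3 windows stand out in earlier results of the same data and are no independent evidence for the list. The other 7 windows had a summed ratio of 1.57, and 5 of them had a widened interval above 1.

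Among these others, 33470001 to 33480000 on chromosome 17 held 627 reads at 0 min and 1396 at 30 min, a ratio of 1.96 (1.59 to 2.42). The window 33960001 to 33970000 on chromosome 16 held 1257 and 2407 reads, a ratio of 1.68 (1.45 to 1.96), while the window next to it, 33970001 to 33980000, held 1184 and 1158 reads, a ratio of 0.860 (0.717 to 1.03). On chromosome 2, 133010001 to 133020000 had a ratio of 1.59 (1.35 to 1.88) and 133030001 to 133040000 one of 1.37 (1.07 to 1.75). The window 71140001 to 71150000 on chromosome 5 had 1.52 (1.19 to 1.94). Only 70290001 to 70300000 on chromosome 4, at 1.01 (0.583 to 1.75), and 70600001 to 70610000 on chromosome 8, at 0.975 (0.698 to 1.36), lay near 1, and these 2 were the least covered of the 10 in PARP1 at 0 min, with 130 and 338 reads.

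The higher values did not extend to neighbouring windows. The median ratio was 1.64 in the rRNA-like windows themselves, 1.01 in the 10 kb before them and 0.930 in the 10 kb after them. Of the 60 windows with a mean of at least 1000 reads, 4 had a ratio of at least 1.5, and all 4 are on the rRNA-like list. Those on chromosomes 21 and 1 are among the windows that stand out in earlier results, so for them the match was known in advance. The mean also includes the 30 min PARP1 library, so a high count there helps a window to pass the depth limit. In the other libraries the window on chromosome 1 held 790 to 1430 reads and the one on chromosome 2 held 579 to 1255. The match is therefore a description and no separate support for the list. Outside that list, the highest ratio among the deep windows was 1.32 (1.17 to 1.498), at 49150001 to 49160000 on chromosome 4.

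**Figure D1:**
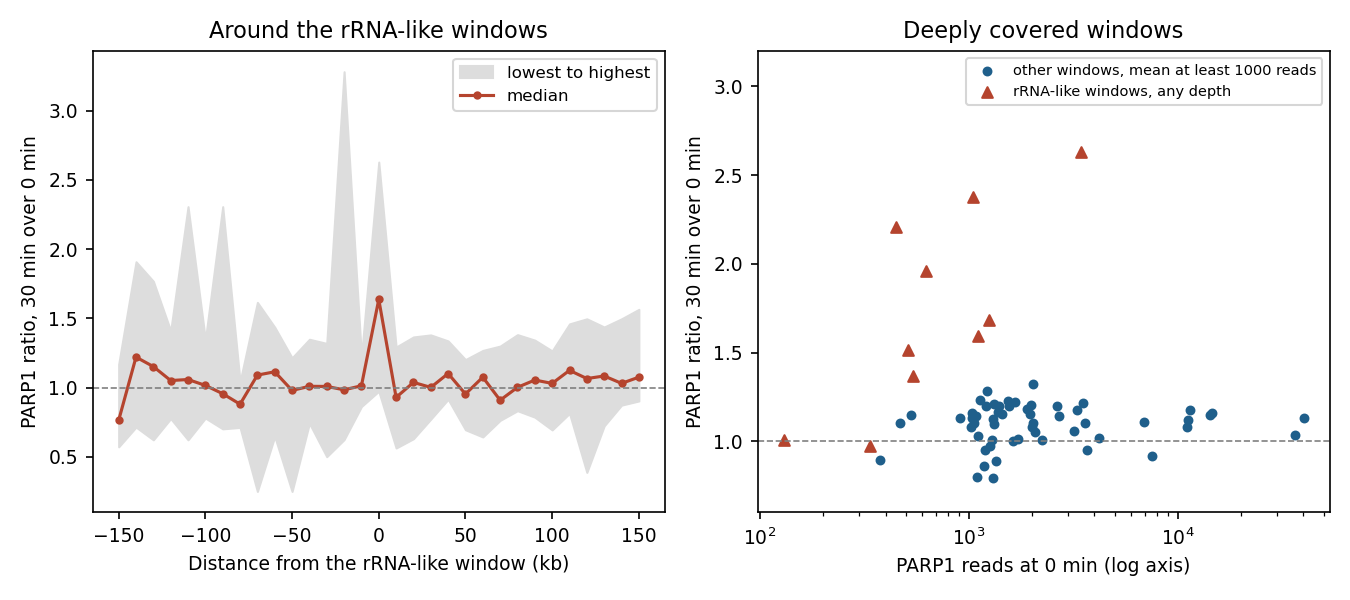
Left, the PARP1 ratio of 30 over 0 min (vertical axis) by distance in kb from the 10 rRNA-like windows, with the median as a line and the lowest to highest value shaded; the median is 1.64 at the windows and near 1 beside them. Right, the ratio against PARP1 reads at 0 min (log axis) for the 10 rRNA-like windows (triangles) and the other windows with a mean of at least 1000 reads (circles), none of which passes 1.32.

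The 5S ribosomal RNA genes, transcribed by RNA polymerase III from a separate array on chromosome 1, are in the assembly at 228740001 to 228790000. Their 3 compared windows held 316 PARP1 reads at 0 min and 377 at 30 min, a ratio of 1.049 (0.747 to 1.48). Nuclear copies of mitochondrial DNA, where reads of mitochondrial origin can align, had ratios from 0.905 to 1.147 in 5 windows. The deepest, 560001 to 570000 on chromosome 1, had 7561 PARP1 reads before hormone, 8954 after 5 min and 7886 after 30 min, a ratio of 0.917 (0.855 to 0.983).

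Summed over the rRNA-like windows, CDK2 was also higher at 30 min, by less than PARP1. Its 2 libraries, which share no reads with the PARP1 pair, held 6364 reads at 0 min and 8187 at 30 min, a ratio of 1.45 (1.28 to 1.64). The PARP1 ratio was 1.44 times the CDK2 ratio (1.25 to 1.64). Both sums include the windows that stand out in earlier results, so part of this difference may come from that choice. At single windows CDK2 had the higher ratio on chromosome 4 (1.59 against 1.01) and chromosome 8 (1.21 against 0.975). It was also higher at 133010001 to 133020000 on chromosome 2 (1.68 against 1.59), and PARP1 was higher in the rest of the list. The CDK2 ratio lay above 1 in all 10 windows, with a widened interval above 1 in 2 of them. The dispersion of the CDK2 pair was 14.4.

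PARP1 was higher at genes that define luminal breast cells. The list holds 9 genes, and as for all genes below, their places in hg19 come from general knowledge. The RefSeq gene table at hand is of GRCh38.p14 and its positions were used only to check that each of 44 genes lies on the same chromosome and within 3 Mb, which all 44 did. Of the 9 loci, 8 had a ratio above 1, and the widened interval lay above 1 in 6, or in 5 with the interval used for blocks, which no longer left ERBB2 above 1. By windows, 8 of 18 had a widened interval above 1, against 2.42% of all windows, and none had one below 1. The 18 windows held 4326, 6387 and 6840 PARP1 reads at 0, 5 and 30 min, and the ratio of 30 over 0 min was 1.39 (1.28 to 1.51). The ratio of 5 over 0 min was 1.41, so the share was no higher at 30 min than at 5 min.

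KRT19, a type I keratin of simple epithelia, had the most reads behind a high ratio. Its 2 windows on chromosome 17, 39670001 to 39690000, held 614, 1072 and 1286 reads at 0, 5 and 30 min, a ratio of 1.84 (1.49 to 2.29), while 20 windows on each side had 1.23. The first of the 2 windows is placed by the same general knowledge over KRT15 as well, and it stands out in earlier results of these data. It had a ratio of 2.13 (1.56 to 2.92), and the second window had 1.59 (1.18 to 2.17). Without KRT19 the list had a ratio of 1.32. XBP1, a transcription factor of the secretory and luminal programme, went from 125 to 265 reads in its window on chromosome 22 (1.86, 1.152 to 3.09). TFF1, an oestrogen-induced secreted peptide, went from 143 to 296 reads on chromosome 21 (1.82, 1.16 to 2.91). Their flanks had ratios of 1.06 and 1.101.

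SPDEF, an ETS factor of secretory epithelia, held 549 reads at 0 min and 1004 at 30 min over 3 windows of chromosome 6 (1.61, 1.27 to 2.04). GATA3, a zinc finger factor required for luminal cells, had 905 and 1314 reads over 3 windows of chromosome 10 (1.28, 1.06 to 1.54). ERBB2, the HER2 receptor gene, had 1.20 (1.01 to 1.44, or 0.969 to 1.496 with the interval used for blocks) over 4 windows and FOXA1, a pioneer factor that opens chromatin for steroid receptors, 1.26 (0.967 to 1.65) over 2. The paired keratins of luminal cells, KRT18 and KRT8, had 1.14 (0.790 to 1.66) and 0.984 (0.667 to 1.46). KRT8 was the only locus of the list below 1, with 251, 427 and 281 reads at 0, 5 and 30 min. CDK2 was above 1 at all 9 luminal loci, with a summed ratio of 1.78 (1.51 to 2.09), and the PARP1 ratio was 0.782 times that of CDK2 (0.654 to 0.935).

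Genes of the progestin response were modestly higher as a list, and unequal among themselves. Of 18 loci, 14 had a ratio above 1, 5 had a widened interval above 1, or 4 with the interval used for blocks, and none had one below 1. The summed ratio was 1.11 (1.07 to 1.152), from 24958 and 31527 reads, and the median locus had 1.17. By windows, 13 of 112 had a widened interval above 1 and 1 had it below 1, against 2.42% and 2.48% of all windows. The shares of all windows do not take account of the level around each locus. Relative to 20 windows on each side the median locus stood at 1.06, and 12 of the 18 loci lay above them. Of the 112 windows, 55 had a ratio above that of the windows on each side. CDK2 had a summed ratio of 1.21 (1.13 to 1.31) on the same list, and the PARP1 ratio was 0.915 times that of CDK2 (0.843 to 0.993).

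BCL2L1, which encodes the survival protein BCL-XL, had the highest ratio of the list, with 1537, 1986 and 2489 reads at 0, 5 and 30 min over 7 windows of chromosome 20 (1.42, 1.24 to 1.64, flanks 1.12). ELF5, an ETS factor of the milk-secreting lineage, had 1257, 1425 and 1855 reads over 4 windows of chromosome 11 (1.30, 1.11 to 1.52, flanks 1.098). STAT5A, the signal transducer of prolactin, had 1.28 (1.06 to 1.56, flanks 1.097). GREB1, a steroid-induced cofactor, had 1.18 (1.03 to 1.34, flanks 1.14). ZBTB16, a zinc finger repressor, had 1.096 (1.01 to 1.20, or 0.986 to 1.22 with the interval used for blocks, flanks 1.045). The intervals of STAT5A, GREB1 and ZBTB16 include the ratios of their flanks. CDKN1A, the p21 inhibitor of CDK2, had 1.32 (0.996 to 1.75) and WNT4, a paracrine factor of the mammary gland, 1.29 (0.994 to 1.69). FKBP5, a chaperone of steroid receptors, had 0.991 (0.898 to 1.09) over its 16 windows, and EGFR, the epidermal growth factor receptor gene, 1.03 (0.961 to 1.11) over 20. The lowest was AREG, an EGF receptor ligand, with 137 reads at 0 min and 101 at 30 min in its 1 compared window (0.648, 0.352 to 1.18).

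TNFSF11, the gene of RANKL, through which progesterone acts on neighbouring mammary cells, had 1000 reads at 0 min and 1124 at 30 min over 6 windows of chromosome 13, a ratio of 0.988 (0.817 to 1.20). Its windows differed. The window with the gene start, 43130001 to 43140000, held 61, 125 and 183 reads at 0, 5 and 30 min (2.64, 1.37 to 5.42), and the other 5 windows together had 0.881. This prompted a look at gene starts, added after these values had been seen, with strands taken from the RefSeq promoter table. The start window could be placed at 32 other loci. Of these, 25 had a ratio above 1 there (against 49.5% of all windows), 8 had at least 1.5 (against 4.21%), and 6 had a widened interval above 1 (against 2.42%). For 11 of the 32 the start window is the whole locus, so its value is the one counted in the lists above. With TNFSF11, the median start window had 1.26 for PARP1 and 1.31 for CDK2. The shares of all windows do not take account of the level around each locus. Set against the windows on each side of them, 22 of the 33 start windows, TNFSF11 included, had the higher PARP1 ratio.

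Start windows stood above the rest of the locus at 12 of the 17 loci with 3 or more windows, and at 11 of 16 without TNFSF11. The medians over the 17 were 1.20 at the start and 1.098 in the rest. GATA3 had 238 reads at 0 min and 481 at 30 min in its start window (1.78, 1.25 to 2.55), against 1.098 in its other 2 windows. ELF5 had 251 and 560 reads (1.96, 1.41 to 2.77), against 1.13 in its other 3. FKBP5 had 217 and 368 reads (1.49, 1.02 to 2.20), against 0.959 in its other 15. The start window was the lower at the other 5. It had 0.932 (0.596 to 1.46) at BCL2L1 against 1.496 elsewhere, 1.06 (0.620 to 1.83) at WNT4 against 1.38, and 0.821 (0.577 to 1.17) at EGFR against 1.04. The differences were smaller at ATF3, with 1.04 and 1.11, and at ESR1, with 1.041 and 1.042.

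The 3 steroid receptor genes had ratios near 1, with widened intervals that held 1. PGR, the progesterone receptor gene, had 3087, 2750 and 3381 reads at 0, 5 and 30 min over 11 windows of chromosome 11, a ratio of 0.963 (0.864 to 1.07). ESR1, the oestrogen receptor gene, had 1.04 (0.971 to 1.12) over 42 windows, and NR3C1, the glucocorticoid receptor gene, 0.995 (0.920 to 1.08) over 17. Immediate early genes, which are transcribed within minutes of a stimulus, had a median ratio of 1.25 over 9 loci, of which 8 lay above 1 and 0 had a widened interval above 1. Summed over the list, the ratio was 1.16 (1.06 to 1.27), from 4158 and 5495 reads. The flanks of these loci had ratios from 1.02 to 1.16, so the summed interval does not separate the genes from their surroundings. Relative to the flanks the median locus stood at 1.12, and 6 of the 9 lay above them. JUN, a subunit of the AP-1 factor, had 168, 226 and 289 reads (1.51, 0.982 to 2.36), the zinc finger factor EGR1 had 164, 203 and 262 (1.40, 0.901 to 2.22), and FOS, the partner of JUN, 225, 262 and 271 (1.06, 0.707 to 1.59). At this depth differences of that size were not detectable in single loci.

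At the genes of the proteins under study, the PARP1 gene had 1769 PARP1 reads at 0 min and 2237 at 30 min over 6 windows (1.11, 0.968 to 1.28). The CDK2 gene had 319 and 456 PARP1 reads in 1 window (1.26, 0.910 to 1.74). CCNE1, a cyclin partner of CDK2, had 1.45 (0.964 to 2.21), CDKN1B, the p27 inhibitor, went from 50 to 107 reads (1.88, 0.868 to 4.36), and CCNA2, another cyclin partner, had 0.918 (0.675 to 1.25). None of the 5 had a widened interval that left 1 out, while their sum, 2735 and 3538 reads, had a ratio of 1.14 (1.02 to 1.27). The flanks of these loci had ratios from 0.964 to 1.093, and 4 of the 5 loci lay above their flanks. The summed interval therefore does not separate the genes from their surroundings.

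**Figure D2:**
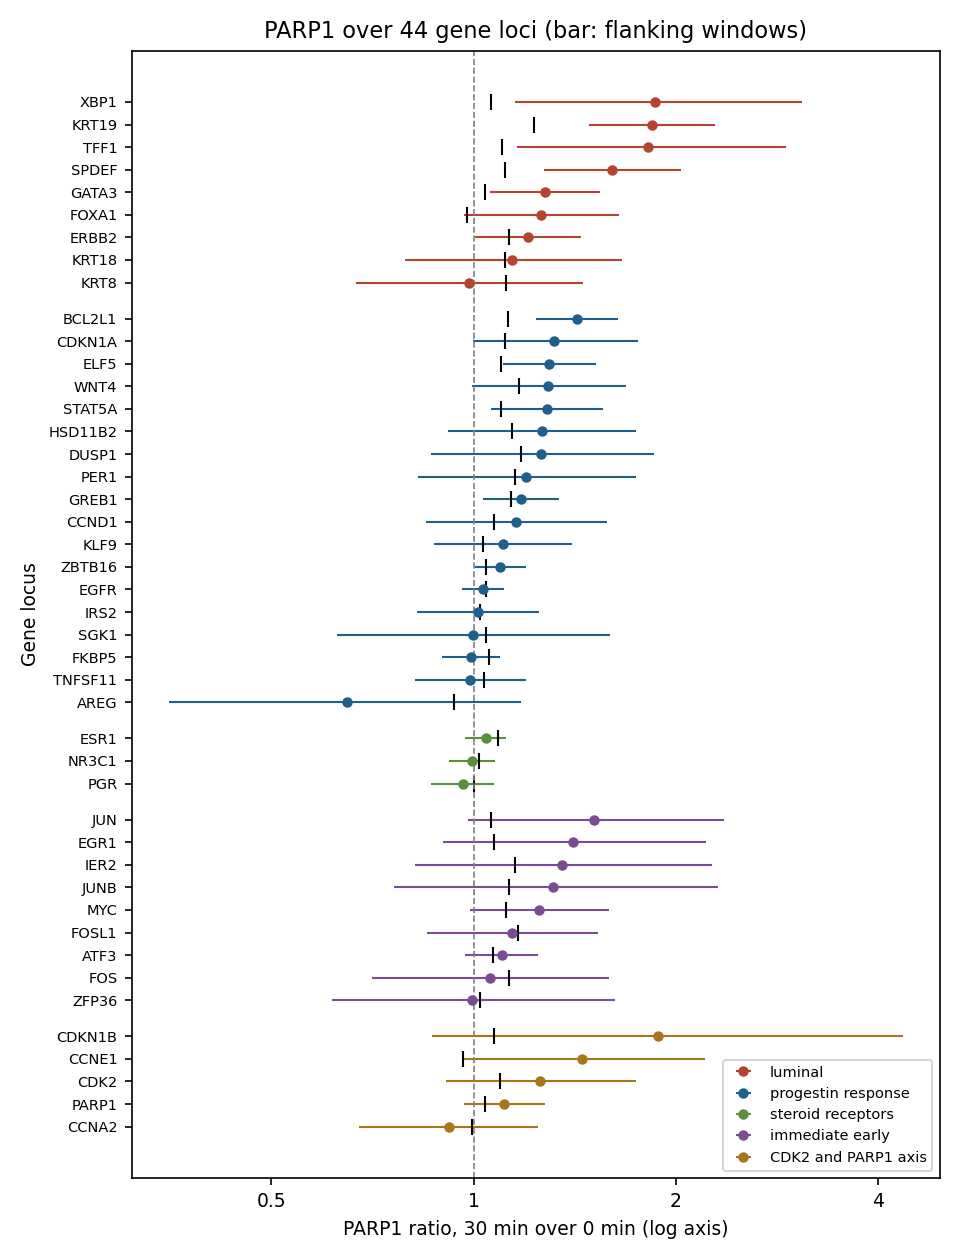
PARP1 ratio of 30 over 0 min (log axis) at 44 gene loci, by list, with widened 95% intervals as lines and the ratio of 20 flanking windows on each side as black bars. XBP1, KRT19, TFF1 and SPDEF lie at 1.61 to 1.86, well right of their flanks, while PGR, ESR1 and NR3C1 lie between 0.963 and 1.04.

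Apart from the rRNA-like windows, the rule for single windows named 7 higher windows, all of modest depth. They were ranked by the bound of the widened interval, with 10 per direction and at most 1 per Mb. The window 12670001 to 12680000 on chromosome 1, which general knowledge places around the start of DHRS3, a retinaldehyde reductase gene, held 85, 203 and 320 reads at 0, 5 and 30 min (3.31, 1.94 to 5.93). Within GLI2, a hedgehog transcription factor gene, 121640001 to 121650000 on chromosome 2 held 67, 223 and 228 reads (2.99, 1.62 to 5.87). Within GAS7, 10020001 to 10030000 on chromosome 17 held 85, 185 and 273 reads (2.82, 1.64 to 5.11). In ABCC12, a transporter gene, 48150001 to 48160000 on chromosome 16 held 96, 278 and 300 reads (2.75, 1.64 to 4.79).

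Neighbouring windows were seldom as high. Both neighbours had a ratio of at least 1.5 in 0 of the 10 higher windows, and 1 neighbour did in 2. PARP1 at 5 min lay above 0 min in all 10 and below it in all 10 of the lower windows, but both comparisons use the same 0 min library, in which these windows were chosen to be low or high. CDK2, which shares no library with them, lay above 1 at 30 min in 8 of the 10 higher windows, against 46.9% of all windows, and in 5 of the 7 that are not rRNA-like. It lay below 1 in 6 of the 10 lower windows, against 53.1% of all windows.

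The named lower windows held from 127 to 312 PARP1 reads at 0 min, most of them more than the 188 of the median compared window. At 30 min they held from 37 to 131. The first by rank, 26790001 to 26800000 on chromosome 5, held 176, 108 and 49 reads at 0, 5 and 30 min (0.245, 0.110 to 0.498). On chromosome 15, 25530001 to 25540000, within the imprinted Prader-Willi and Angelman region, held 312, 182 and 131 reads (0.369, 0.227 to 0.584). The third, 26480001 to 26490000 on chromosome 9, held 127, 78 and 37 reads (0.256, 0.0990 to 0.586). The counts of windows past 2-fold whose widened interval leaves out 1 were 622 higher (0.236%) and 824 lower (0.313%), and 819 and 624 under the low-window scaling.

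On the scale of whole chromosomes, PARP1 ratios were higher where protein-coding genes are dense. The widened interval lay above 1 on 11 of the 22 autosomes and below 1 on 9. The highest ratios were 1.09 (1.08 to 1.102) on chromosome 22, 1.09 on chromosome 19, 1.06 on chromosome 17, 1.051 on chromosome 16 and 1.04 on chromosome 20, and the lowest 0.964 on chromosome 4 and 0.973 on chromosome 13. Set against the density of protein-coding genes, from 3.55 per Mb of compared windows on chromosome 13 to 26.4 on chromosome 19, the ratios had a Pearson correlation of 0.854 and a Spearman correlation of 0.884 over 22 chromosomes, which share both libraries and differ in base composition. Base composition was not analysed here. The CDK2 ratio had a like relation to gene density (Pearson 0.829, Spearman 0.868), and the chromosome ratios of PARP1 and CDK2 had a Pearson correlation of 0.984. The low-window scaling leaves the order as it is, but chromosomes 2, 3, 5, 6, 7, 8 and 18 move from below to above 1 under it, as do chromosomes 12 and 14, whose intervals held 1.

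**Figure D3:**
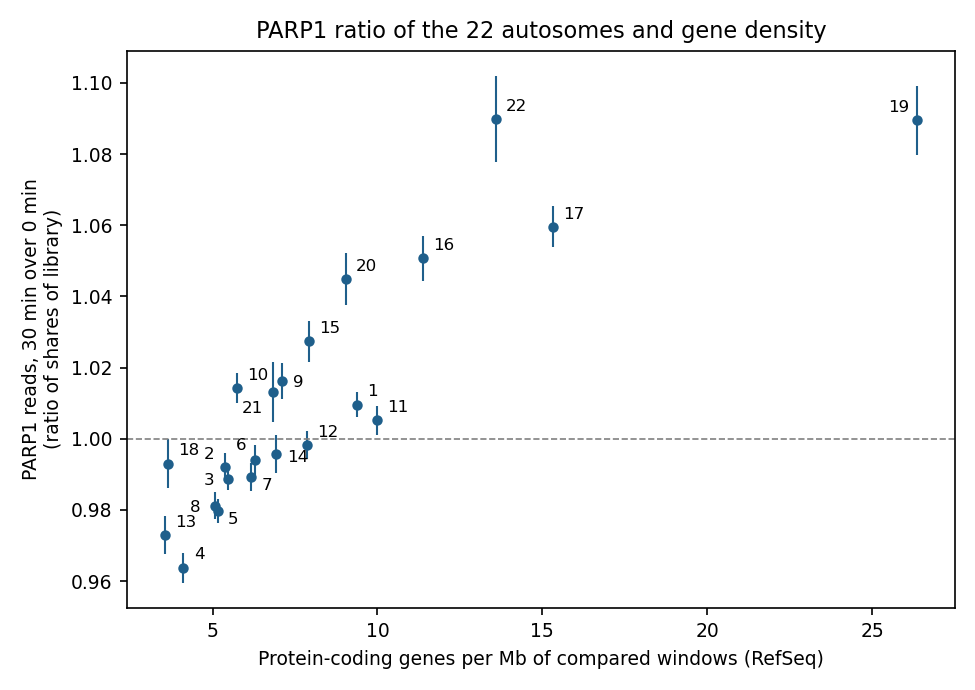
PARP1 ratio of 30 over 0 min (vertical axis, with widened 95% intervals) against protein-coding genes per Mb of compared windows for the 22 autosomes. Chromosomes 22 and 19 lie highest at 1.09 and chromosomes 4 and 13 lowest at 0.964 and 0.973; under the low-window scaling all points move up by 0.04 on the log2 scale and chromosomes 2, 3, 5, 6, 7, 8, 12, 14 and 18 cross 1.

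The 2 arms of a chromosome often differed. The short arm of chromosome 6, which carries the histone and major histocompatibility genes, had 1.03 (1.03 to 1.04) and the long arm 0.963 (0.958 to 0.968). On chromosome 9 the order was the other way, with 0.969 (0.960 to 0.979) on the short arm and 1.03 (1.03 to 1.04) on the long arm. On chromosome 20 the short arm had 1.01 (0.999 to 1.02) and the long arm 1.06 (1.06 to 1.07), and on chromosome 4 the short arm had 0.995 (0.987 to 1.00) and the long arm 0.953 (0.948 to 0.957). Across 39 arms, the widened interval lay above 1 in 16 and below 1 in 13.

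Within chromosomes, 296 blocks of 1 Mb (11.0%) had a ratio of at least 1.1 and 293 (10.9%) a ratio of at most 1 over 1.1. Under the low-window scaling these counts were 526 and 140. The widened interval lay above 1 in 701 blocks (26.2%) and below 1 in 667 (24.9%), and in 1045 and 417 under that scaling. Blocks ran from 0.814 to 1.62, with 0.884 and 1.13 as the 5th and 95th percentiles. Ratios of neighbouring blocks correlated more than those of neighbouring windows, which hold fewer reads and so carry more counting error. The Pearson correlation of log2 ratios was 0.661 between adjacent blocks, 0.291 at 5 Mb, 0.124 at 20 Mb and -0.02 at 50 Mb, against 0.128 between adjacent 10 kb windows. These are descriptions over positions that share both libraries.

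In the named higher blocks most windows were higher, with 1 exception. These blocks were ranked on the sum of the same windows, so the counts describe the spread within a block and are no independent support. The block 85000001 to 86000000 on chromosome 16, which holds GSE1 and the interferon regulatory factor IRF8, had 35857 reads at 0 min and 52008 at 30 min (1.27, 1.23 to 1.32), and 91 of its 100 windows lay above 1, against 49.5% of all windows. The block of STK11, a tumour suppressor kinase, at 1000001 to 2000000 on chromosome 19 had 9401 and 13154 reads (1.23, 1.146 to 1.32). The block of LMNA, the nuclear lamin A gene, at 156000001 to 157000000 on chromosome 1 had 26141 and 35379 (1.19, 1.14 to 1.24). The block of the long noncoding RNA genes NEAT1 and MALAT1, at 65000001 to 66000000 on chromosome 11, had 18015 and 24423 (1.19, 1.13 to 1.25). In each of these 3, between 75 and 80 of 100 windows lay above 1. The exception was 9000001 to 10000000 on chromosome 21, which had 1.62 with its rRNA-like window and 1.01 without it.

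In the named lower blocks, which were ranked in the same way, most windows lay below 1. The block of ADGRB3, a synaptic receptor gene, at 69000001 to 70000000 on chromosome 6 had 22828 reads at 0 min and 21407 at 30 min (0.824, 0.783 to 0.867), and 21 of its 100 windows lay above 1. Similar values were found at ZNF804A on chromosome 2 (0.818, 0.769 to 0.871), at the salivary amylase gene AMY1A on chromosome 1 (0.816, 0.762 to 0.875) and at NELL1 on chromosome 11 (0.842, 0.805 to 0.881). The block 55000001 to 56000000 on chromosome 11, an array of olfactory receptor genes, had 0.832 (0.786 to 0.881). Genes were matched to these blocks after the values had been seen.

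PARP1 ratios were higher near chromosome ends. Blocks within 2 Mb of an end had a summed ratio of 1.09 (1.08 to 1.096), and 73 of the 84 lay above 1, against 51.3% of all blocks. The summed ratio was 1.06 between 2 and 5 Mb, 1.03 between 5 and 10 Mb, 1.02 between 10 and 20 Mb and 0.988 (0.987 to 0.989) farther inside. In the blocks within 2 Mb of an end, PARP1 at 5 min had 1.1497 against the same 0 min library, and CDK2 at 30 min had 1.23 against its own. Not every end was higher. The block 1000001 to 2000000 on chromosome 3 had 0.922 (0.878 to 0.968) and 248000001 to 249000000 on chromosome 1, an olfactory receptor array, had 0.926 (0.870 to 0.985). Gene density also differs along chromosomes, and its part in this result was not tested.

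**Figure D4:**
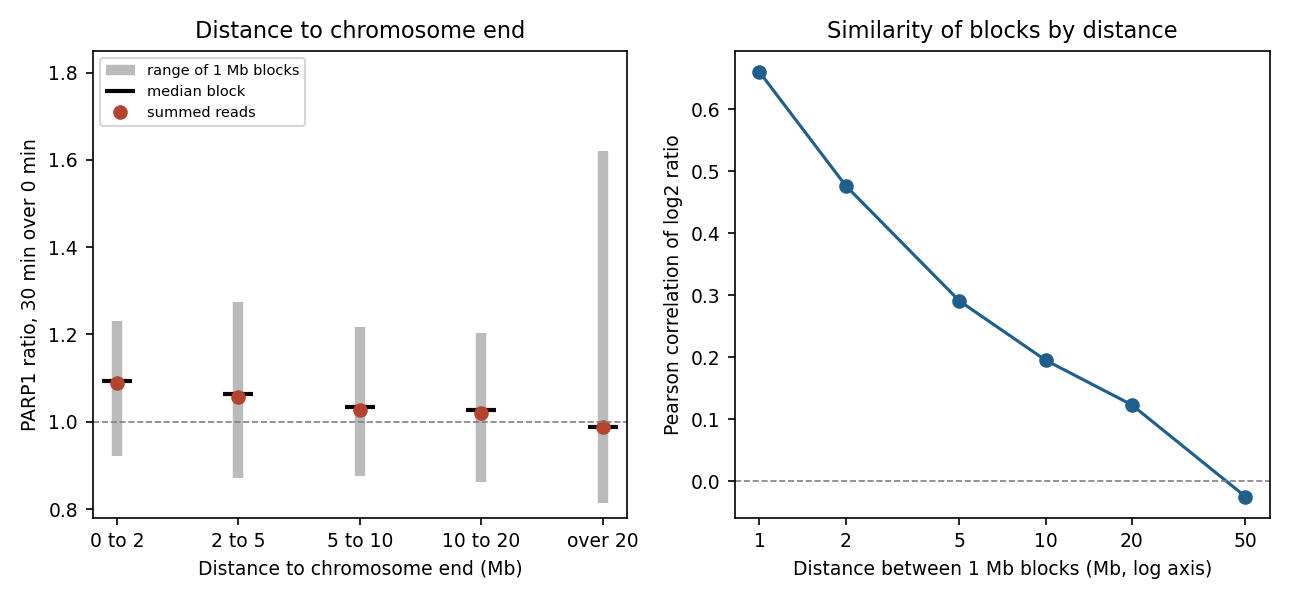
Left, PARP1 ratio of 30 over 0 min by distance to the chromosome end in Mb, with summed reads (points), the median block (dashes) and the range of blocks (bars); summed ratios go from 1.09 within 2 Mb to 0.988 beyond 20 Mb. Right, Pearson correlation of the log2 ratio of 1 Mb blocks by the distance between them (log axis), from 0.661 at 1 Mb to -0.02 at 50 Mb.

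The PARP1 ratio varied little with the level of CDK2 before hormone, a library on neither side of the ratio. When windows were put into 10 equal classes by that level, the PARP1 ratio was 1.02 (1.01 to 1.02) in the class with the fewest CDK2 reads and 0.994 (0.992 to 0.997) in the class with the most. The 8 classes between ran from 0.996 to 1.01. Under the low-window scaling the highest class had 1.02.

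CDK2 and PARP1 ratios went together over blocks, with a wider spread for CDK2. Over the 2679 blocks the log2 ratios of 30 over 0 min had a Pearson correlation of 0.877 and a Spearman correlation of 0.887, and 2277 blocks lay on the same side of 1. The 2 ratios share no library, but the points share sequence, mappability and the 2 treatments. Of the 701 blocks with a widened PARP1 interval above 1, CDK2 also had one above 1 in 557 and one below 1 in 0. Of the 667 lower blocks, it had one below 1 in 536 and one above 1 in 1. The spread of the log2 ratio over blocks was 0.21 (SD) for CDK2 and 0.11 for PARP1. Over single windows the Pearson correlation was 0.135.

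**Figure D5:**
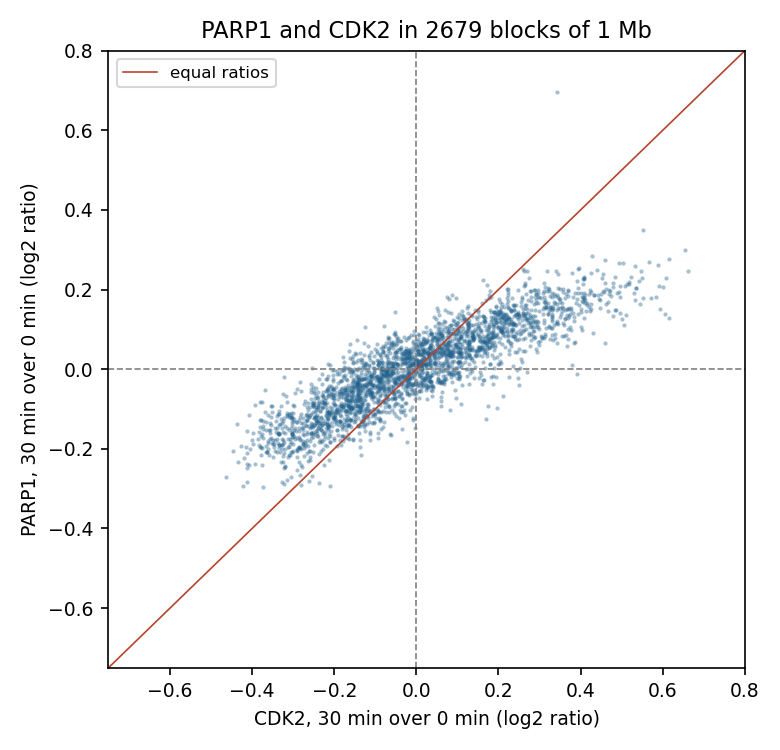
Log2 ratio of 30 over 0 min for PARP1 (vertical axis) and CDK2 (horizontal axis) in 2679 blocks of 1 Mb, 1 point per block, with the line of equal ratios. The points follow a slope flatter than that line (SD 0.11 for PARP1 and 0.21 for CDK2), and the 1 point far above it is the block of chromosome 21 with the rRNA-like window.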

How the data were processed

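The authors deposited whole-number read counts in consecutive 10 kb windows of chromosomes 1 to 22 and X, 1 column per library and not normalized, per the file headers and values. Per the submitters' processing notes, the aligner was Bowtie 1.0.0 and the build hg19 (GRCh37). How duplicate reads, and reads matching several places, were treated is not stated there.

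From these counts, each library was scaled by its column total. Ratios, exact binomial intervals and dispersions were computed in Python 3.11.15 with numpy 2.4.6, pandas 2.3.3, scipy 1.17.1 and matplotlib 3.10.9, and were tested on simulated data. TMM factors from edgeR 4.0.16 and size factors from DESeq2 1.42.0, in R 4.3.3, served as alternative scalings only. Arms were split at the longest run of windows with 0 reads in all libraries, and those under 5 Mb were left out.

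Windows past 2-fold and blocks were ranked by the bound of the widened interval nearest to 1, and those described come from the first 10 in each direction (1 block is not reported here), spaced by at least 1 Mb for windows and 3 Mb for blocks. The comparison and its lists were chosen with earlier results of these data known, and gene starts, landmark genes and the second interval for loci were added after seeing the values. Positions are 1-based in hg19. No hg19 sequence or annotation was used here, so no sequence is printed and gene places come from general knowledge.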

Additional observations from a re-analysis of the deposited data

Results flagged for a closer look

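Among the chromosomes, listed loci, named windows and named blocks, PARP1 and CDK2 had widened intervals on opposite sides of 1 at 1 locus. At the nuclear copy of mitochondrial DNA at 560001 to 570000 on chromosome 1, PARP1 had a ratio of 0.917 (0.855 to 0.983) at 30 min and CDK2 one of 1.12 (1.06 to 1.18), from 38577 reads at 0 min and 38315 at 30 min. The PARP1 call depends on the interval and the scaling. With the interval used for blocks it was 0.842 to 0.999, and with that interval it held 1 under TMM factors (0.845 to 1.003), size factors (0.844 to 1.002) and the low-window scaling (0.942, 0.864 to 1.026). With 1 library per antibody and time the difference was not tested against replicates. Over the 5 windows with such copies the PARP1 ratio was 0.844 times that of CDK2 (0.788 to 0.904). No group had enough samples to look for a sample far from the others.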

How the results depend on the processing

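No paired analysis was possible because each antibody and time has 1 library. TMM factors, size factors and the autosomal total moved all log2 ratios by 0.0057, 0.0047 and -0.00096, and scaling on the 10% of windows with the fewest reads by 0.0387. That last scaling gave 526 blocks past 1.1-fold higher and 140 lower, and 417 with a widened interval below 1. It gave 0.990 on chromosome 4, 1.12 on chromosomes 19 and 22, 1.12 for blocks within 2 Mb of an end, and 1.04 and 1.02 for the lowest and highest class by CDK2 level, the latter now above 1. It turned chromosomes 2, 3, 6, 7 and 18 to 1.02 and 5 and 8 to 1.01. The highest class had 0.998 with TMM and with size factors, and 0.986 without the top 1% of windows. Leaving out that 1% keeps only the rRNA-like windows of chromosomes 4 and 8, which had 0.984. Without the 3 rRNA-like windows known earlier the list had 1.57. Windows past 2-fold were 1700 higher and 2096 lower at a mean of at least 1, and 502 and 599 at a mean of at least 100. Past 1.5-fold there were 11097 and 12605, of which 5073 and 5489 had a widened interval that left out 1, and past 3-fold 123 and 156, of which 22 and 34 did. With the block limit at 15% there were 64 and 65 blocks, and at 5% 749 and 703. Blocks of 2 Mb gave 124 and 113 past 1.1-fold, and 438 and 391 by the widened interval, out of fewer blocks. Of the values for single chromosomes, loci, windows and blocks under these settings, 468 moved by less than their interval, 20 by more, and 7, the chromosomes named, changed side. Chromosomes 12 and 14, whose intervals held 1, are among the 20 and crossed 1 too. Depth limits single windows: at EGR1, with 164 and 262 reads, a ratio of 1.40 had an interval from 0.901 to 2.22.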

Other observations

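Chromosome X lay outside the autosomal comparison. Its 14785 windows with a mean of at least 10 reads held 1455892 PARP1 reads at 0 min and 1615086 at 30 min, a ratio of 0.975 (widened interval 0.969 to 0.981), close to chromosome 13. CDK2 had 0.954 (0.944 to 0.965) there.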
